A study of Homo sapiens with 6 samples.

Results

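The 85 genes described here encode the cell's matrix receptors and much of the matrix they hold. They were chosen by name, as every protein-coding gene in the count table whose symbol marks an integrin, a laminin or a collagen chain, which gave 85 of 58735 genes. The name pattern took 26 integrin chains, 12 laminin chains and 44 collagen chains, as well as 3 integrin-binding proteins, ITGB1BP1, ITGB1BP2 and ITGB3BP, which are not integrin chains and are kept apart below.

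RNA was sequenced from 6 libraries of SW480, an established human colorectal cancer cell line. The labels give 3 libraries a CNOT7 knockdown genotype and 3 a control genotype, with no treatment in either group. CNOT7 is a deadenylase subunit of the CCR4-NOT complex, which shortens the poly(A) tails of mRNAs, and the comparison asks which transcripts move when it is depleted by an shRNA stably expressed from a lentiviral vector. Which of the study's shRNAs each library carries is not stated, nor whether the libraries came from separate cultures, so the p-values measure the spread between these libraries, which may be technical. The labels name SW480, whereas the study's text names HCT116, another colorectal cancer line, for this experiment.

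Integrins are heterodimers of an alpha and a beta chain that link the matrix outside the cell to the actin or keratin skeleton inside. Laminins are trimers of an alpha, a beta and a gamma chain and form, with type IV collagen, the basement membrane on which epithelial cells rest. Collagens are triple helices built of identical or different alpha chains, and they range from fibrils of connective tissue to membrane-bound and network-forming types.

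The libraries held 23788451 to 25982493 counts in the control group and 27523812 to 29104872 in the knockdown group. Levels are given as CPM, the counts of a gene scaled to a common library total, with TMM factors, and levels of different genes are compared only as CPM per kilobase of gene length. Changes are log2 fold changes of knockdown over control from edgeR's quasi-likelihood test, with the standard error (SE) and a p-value adjusted by the Benjamini-Hochberg method over all 17574 genes tested. A gene is said to have risen or fallen where that adjusted p is under 0.05. CNOT7 itself stood at 169, 191 and 176 CPM in the control libraries and at 43.4, 47.2 and 38.6 CPM in the knockdown libraries. It fell by 2.05 on the log2 scale (SE 0.07, adjusted p = 2.64e-12), so the labels and the target matched. Of 11 colorectal epithelial markers, EPCAM, CDH1, VIL1, CDX2 and the keratins KRT8, KRT18 and KRT19 were present, while KRT20, CDX1, GPA33 and LGALS4 stayed under 1 CPM in every library. Their summed level was 5554 to 5972 CPM in controls and 5133 to 5684 CPM with knockdown. CDH1 rose by 0.51 on the log2 scale (adjusted p = 0.000155) and VIL1 by 0.72 (adjusted p = 2.9e-05). KRT8 fell by 0.15 (adjusted p = 0.0414) and KRT19 by 0.18 (adjusted p = 0.0212), and EPCAM, KRT18 and CDX2 did not pass. GPA33 had 1, 4 and 0 counts in controls and 16, 18 and 13 with knockdown. It had enough counts to be tested only through its knockdown libraries, so its rise of 2.94 (adjusted p = 0.00304) only describes these counts. The part of these changes in the results below was not tested. Mitochondrial ribosomal RNA took 0.99% to 1.05% of counts in the control libraries and 1.44% to 1.58% in the knockdown libraries, and its part in the results below was not tested.

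Integrin and laminin transcripts had a lower total level in the knockdown libraries, while the collagen total did not separate the groups. The summed level of the 26 integrin chains was 2580, 2635 and 2599 CPM in the control libraries and 2252, 2239 and 2241 CPM in the knockdown libraries. That of the 12 laminin chains was 1758, 1670 and 1722 CPM in the controls and 1571, 1474 and 1545 CPM with knockdown. Neither pair of ranges overlapped. The sums are not corrected for gene length, and LAMA5 alone had a mean of 800 CPM in the controls and 662 CPM with knockdown. Of the 8 tested laminin chains, 6 had a log2 fold change below 0 and 2 above 0. The 44 collagen chains summed to 682, 551 and 644 CPM in the controls and to 590, 514 and 644 CPM with knockdown, with overlapping ranges. In bulk RNA, fewer cells that express a gene and less of its RNA per cell cannot be told apart.

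Of the 85 genes, 52 had enough counts to be tested, 33 did not, and 9 of these had no count in any library. Among the 52, 10 rose and 13 fell. Of all genes tested, 13.3% rose and 11.9% fell. Of the 13642 tested protein-coding genes, 2000 rose and 1965 fell. Integrin chains made up most of the movement among the 52, with 5 higher and 9 lower of 20 tested. Laminins gave 1 higher and 3 lower of 8, and collagens 4 higher and 1 lower of 21. The median log2 fold change was -0.09 over the tested integrins, -0.13 over the laminins and 0.28 over the collagens, against 0.004 over all genes. The 3 knockdown values lay wholly above the 3 control values for 15 of the 52 genes and wholly below them for 14, where 20.6% and 18.2% of all tested genes did so. With a change of at least 1 on the log2 scale asked for as well, ITGAX, ITGB6 and COL5A1 remained higher and ITGB8 and COL13A1 lower, against 2.8% and 0.831% of all genes. Passing the filter depends on the level in the samples, so the counts over 52 genes do not describe all 85.

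**Figure D1:**
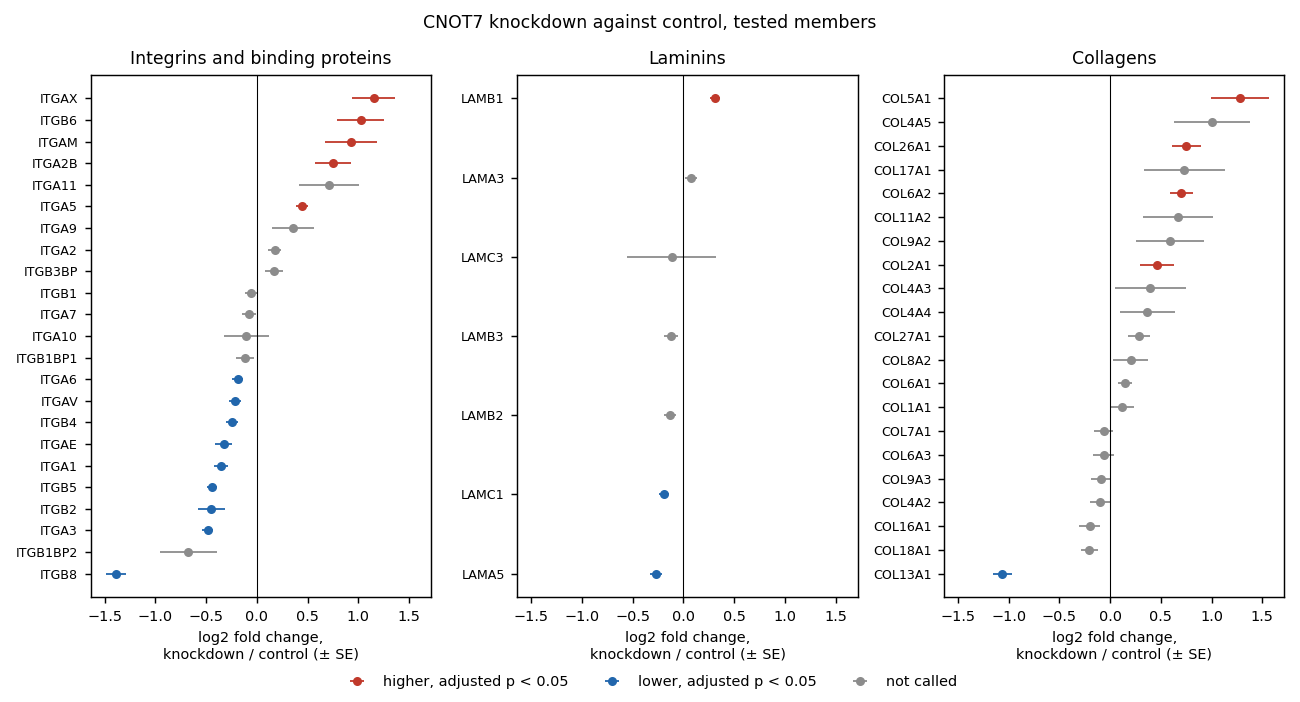
Log2 fold change of knockdown over control (x axis, bars are 1 SE) for 51 tested genes, in panels for integrins with their binding proteins, laminins and collagens. Red points rose and blue points fell at an adjusted p under 0.05, and grey points did not pass. ITGB8 at -1.39 and COL13A1 at -1.06 lie farthest to the left.

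The changes went with expression level, and so did those of all genes. Over all tested genes the median log2 fold change was 0.16 under 1 CPM (0 on the log2 scale), 0.15 from there to a log2 CPM of 2, 0.05 from 2 to 4, -0.03 from 4 to 6 and -0.06 at 6 or more. Of the 14 members between 0 and 2, all 6 that passed the test had risen, and 2 of the 19 members at 6 or more rose while 8 fell. When offsets removed the trend across all genes, the counts were 5 higher and 1 lower in the first of these ranges and 3 higher and 5 lower in the second.

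**Figure D2:**
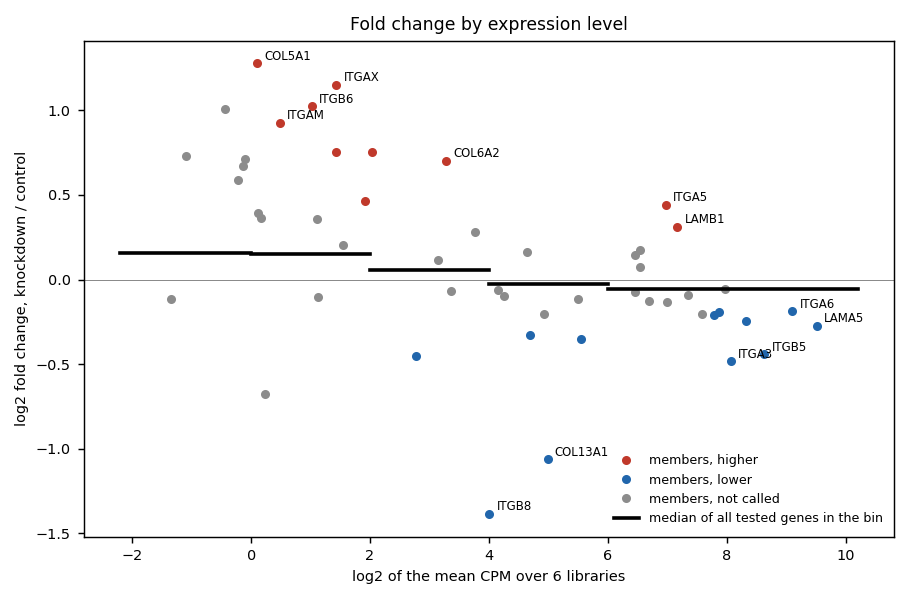
Log2 fold change (y axis) against the log2 of the mean CPM over the 6 libraries (x axis) for 51 tested genes, coloured by call. Black steps are the median over all tested genes in 5 ranges of level, from 0.16 at the left to -0.06 at the right.

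Promoter sequences are shown first for ITGB8 and COL13A1, the members that fell most, and for ITGA5, which rose from a high level. Each is the RefSeq window of 250 bases before and 50 after the gene's start on GRCh38.p14, and the capitals mark letters that match a searched motif. ITGB8 lies at chr7:20330650-20330949 (plus strand), COL13A1 at chr10:69801656-69801955 (plus strand) and ITGA5 at chr12:54419217-54419516 (minus strand).
ITGB8: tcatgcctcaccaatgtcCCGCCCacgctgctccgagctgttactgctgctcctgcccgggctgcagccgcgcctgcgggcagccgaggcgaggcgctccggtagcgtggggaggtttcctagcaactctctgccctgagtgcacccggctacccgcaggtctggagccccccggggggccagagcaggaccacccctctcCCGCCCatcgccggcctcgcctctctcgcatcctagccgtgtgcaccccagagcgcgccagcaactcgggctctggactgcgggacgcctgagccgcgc
COL13A1: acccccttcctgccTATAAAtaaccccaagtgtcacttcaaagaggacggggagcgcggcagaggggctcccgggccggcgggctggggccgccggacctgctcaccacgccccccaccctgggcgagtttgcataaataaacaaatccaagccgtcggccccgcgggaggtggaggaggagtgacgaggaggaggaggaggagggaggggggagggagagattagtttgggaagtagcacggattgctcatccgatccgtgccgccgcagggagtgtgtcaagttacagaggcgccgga
ITGA5: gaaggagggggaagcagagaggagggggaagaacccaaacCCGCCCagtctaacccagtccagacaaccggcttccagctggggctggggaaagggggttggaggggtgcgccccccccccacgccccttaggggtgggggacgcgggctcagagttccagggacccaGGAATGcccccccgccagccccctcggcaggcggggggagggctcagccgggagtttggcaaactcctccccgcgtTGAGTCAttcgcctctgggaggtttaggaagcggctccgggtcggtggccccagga
The motifs were GGAATG as the TEAD letters, TGANTCA as those of AP-1, GGGCGG as those of SP1 and TATAAA as the TATA box, searched on both strands. The ITGB8 window held GGGCGG on the reverse strand at 2 places, the COL13A1 window TATAAA at 1, and the ITGA5 window the letters of TEAD, AP-1 and SP1 at 1 each. Windows could be matched for 53 of the 85 genes. GGAATG was found in 1 of 8 windows of genes that rose and 0 of 9 of genes that fell, against 14.0% of all 35116 windows. GGGCGG was found in 5 of 8 and 5 of 9, against 45.0% of all windows, and TATAAA in 1 of 8 and 2 of 9, against 11.5%. TGANTCA was found in 1 of 8 and 0 of 9, against 7.71%. These are matches of letters in a short window and say nothing on binding.

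The laminin receptors of epithelial cells fell, apart from the shared beta chain ITGB1 and the alpha chain ITGA7. ITGA6 pairs with ITGB4 in hemidesmosomes, the anchors of epithelial cells on laminin, and had the highest level per kilobase of all 85 genes, with a mean of 89.8 CPM per kilobase in the controls and 78.8 with knockdown. It was at 553, 622 and 586 CPM in the control libraries and 512, 540 and 493 CPM in the knockdown libraries. The fall was 0.19 on the log2 scale (SE 0.05, adjusted p = 0.018). The groups did not overlap, but the margin was narrow, and the adjusted p was 0.0696 without control replicate 2, 0.0624 without control replicate 3, 0.0581 without knockdown replicate 1 and 0.0633 without knockdown replicate 3. With the trend removed, ITGA6 was at -0.11 (adjusted p = 0.0993). Its partner ITGB4 measured 357, 332 and 350 CPM in controls against 301, 266 and 309 CPM with knockdown. Each knockdown library lay below each control library, and ITGB4 fell by 0.25 on the log2 scale (SE 0.06, adjusted p = 0.0057). ITGA3, which pairs with ITGB1 to bind laminin, was at 326, 298 and 319 CPM in the control libraries and 232, 212 and 230 CPM in the knockdown libraries. It fell by 0.48 on the log2 scale (SE 0.06, adjusted p = 6.06e-06), with a gap between the groups wider than the range of either. ITGA7, the other laminin-binding alpha chain, ranged from 83.9 to 95.3 CPM in controls and from 78.3 to 92 CPM with knockdown (log2 fold change -0.07, SE 0.07, adjusted p = 0.479).

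ITGB1, the beta chain shared by most alpha chains listed here, did not pass the test. It stood at 247, 271 and 252 CPM in the control libraries and at 240, 268 and 230 CPM in the knockdown libraries, and the groups overlapped. Its log2 fold change was -0.06 (SE 0.06, adjusted p = 0.539), and it was 0.005 once the trend with level was removed.

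Of the collagen-binding alpha chains, ITGA1 fell and its neighbour ITGA2 did not pass the test. These genes lie on the same strand of chromosome 5 with 30115 bases between them. ITGA1 was at 50.7, 54.9 and 52.3 CPM in control libraries and 40.6, 43.9 and 39.1 CPM in knockdown libraries. It fell by 0.35 on the log2 scale (SE 0.07, adjusted p = 0.00107), with no overlap, while 6.39% of its exonic bases are shared with other genes, PELO among them. ITGA2 was at 82.5, 94.4 and 86.2 CPM in controls and 102, 101 and 93.7 CPM with knockdown. Its highest control value lay above its lowest knockdown value, and the log2 fold change was 0.18 (SE 0.06, adjusted p = 0.0523). That value passed the threshold without control replicate 2 (adjusted p = 0.0139), without knockdown replicate 3 (adjusted p = 0.0356), with at least 10 counts asked for in every library (adjusted p = 0.042) and with the trend removed (adjusted p = 0.015). ITGA10 and ITGA11, chains found mainly in cartilage and fibroblasts, had 39 to 71 and 15 to 38 counts a library and did not pass.

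The receptors for RGD motifs, a short peptide signal in fibronectin and vitronectin, moved in both directions. ITGA5, the fibronectin receptor chain that pairs with ITGB1, was at 106, 105 and 108 CPM in controls and at 149, 134 and 151 CPM with knockdown. All knockdown values were above all controls, and ITGA5 rose by 0.44 on the log2 scale (SE 0.06, adjusted p = 2.77e-05). ITGAV, the alpha chain that pairs with ITGB1, ITGB3, ITGB5, ITGB6 or ITGB8, was at 230, 250 and 229 CPM in controls and at 199, 218 and 194 CPM with knockdown. It fell by 0.21 on the log2 scale (SE 0.06, adjusted p = 0.0128), and the adjusted p was 0.0591 without knockdown replicate 1 and 0.0535 with the trend removed.

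The beta partners of ITGAV differed among themselves. ITGB5, a vitronectin receptor chain, was at 461, 453 and 457 CPM in control libraries and 336, 321 and 353 CPM in knockdown libraries. The controls lay within 8 CPM of each other and well above the knockdown values, and ITGB5 fell by 0.44 on the log2 scale (SE 0.05, adjusted p = 6.15e-06). ITGB8, whose dimer with ITGAV binds latent TGF-beta, was at 23.5, 24.5 and 21.7 CPM in controls and 9.65, 9.17 and 7.86 CPM with knockdown. ITGB8 fell by 1.39 on the log2 scale (SE 0.10, adjusted p = 2.43e-08), the largest change of the 23 members called. ITGB6, another chain whose ITGAV dimer binds latent TGF-beta, went the other way from a low level, with 33 counts in each control library and 57, 97 and 79 in the knockdown libraries. Its CPM was 1.28, 1.42 and 1.32 in controls and 2.02, 3.52 and 2.65 with knockdown, a rise of 1.02 on the log2 scale (SE 0.23, adjusted p = 0.0036). An annotated gene on the same strand, AC092153.1, shares 20.6% of the exonic bases of ITGB6, and reads over those bases cannot be told apart. ITGB3 had 0 to 4 counts a library and was not tested. Per kilobase, the control means were 70.9 for ITGB5, 1.53 for ITGB8 and 0.286 for ITGB6, and with knockdown they were 52.2, 0.587 and 0.582. So ITGB5 had the highest RNA level of the 3 in both groups. Which chain pairs with ITGAV as protein was not measured.

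Of the integrin chains known from blood cells, 3 at low counts rose and 2 fell. ITGAX had 50, 41 and 33 counts in controls and 101, 81 and 138 with knockdown, and its neighbour ITGAM, 22241 bases away on chromosome 16, had 19, 27 and 25 against 54, 45 and 58. Both encode alpha chains of complement receptors of myeloid cells. ITGAX rose by 1.15 on the log2 scale (SE 0.21, adjusted p = 0.000733) and ITGAM by 0.93 (SE 0.25, adjusted p = 0.012), the latter with an adjusted p of 0.0642 without control replicate 1. ITGA2B, the alpha chain of the platelet fibrinogen receptor, had 52, 41 and 56 counts in controls and 95, 92 and 103 with knockdown. It rose by 0.75 on the log2 scale (SE 0.18, adjusted p = 0.00463). ITGB2, the beta chain that ITGAM and ITGAX need at the surface of leukocytes, was at 8.64, 6.79 and 8.26 CPM in controls and 6.49, 5.15 and 5.71 CPM with knockdown. It fell by 0.45 on the log2 scale (SE 0.13, adjusted p = 0.0192), with an adjusted p of 0.0796 without control replicate 1, 0.0723 without control replicate 3 and 0.0551 without knockdown replicate 2. ITGAE, the alpha chain by which intraepithelial T cells bind E-cadherin, was at 28.3, 29 and 28.9 CPM in controls and 20.2, 24 and 24.6 CPM with knockdown. ITGAE fell by 0.33 on the log2 scale (SE 0.08, adjusted p = 0.00855), and by 0.25 without knockdown replicate 1 (adjusted p = 0.0617). AC116914.1 and HASPIN overlap 7.59% of its exonic bases on the opposite strand. The beta partner of ITGAE, ITGB7, had 5 to 18 counts a library and was not tested.

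Markers of blood cells were close to absent. The 8 leukocyte markers summed to 2.49 to 4.23 CPM in controls and 4.24 to 4.87 CPM with knockdown, most of it CD14, and PTPRC, the pan-leukocyte marker, had 0 counts in 5 libraries and 4 in the other. Of the 4 platelet markers, PF4, PPBP and GP9 were at 0 throughout, and the sum was 2.49 to 3.07 CPM in controls against 2.36 to 3.73 CPM with knockdown. The 5 endothelial markers summed to 1.72 to 2.33 CPM and 2.89 to 3.59 CPM, mostly VWF. The part of these low signals in the rises of ITGAM, ITGAX and ITGA2B was not tested.

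**Figure D3:**
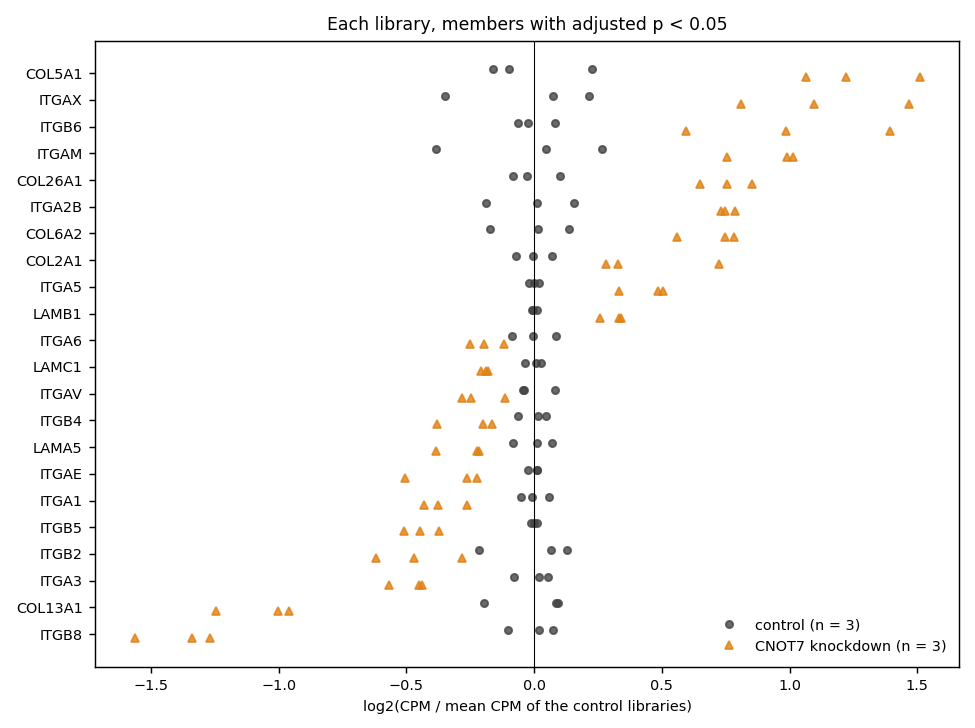
Each library's level of 22 genes that passed the test, as the log2 of its CPM over the mean CPM of the control libraries (x axis), with circles for control and triangles for knockdown libraries. The groups do not overlap for any of the 22, and the spread among controls is widest for ITGAX and ITGAM.

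Among the laminins, the alpha chain LAMA5 and the gamma chain LAMC1 fell, LAMB1 rose, and LAMA3, LAMB2, LAMB3 and LAMC3 did not pass the test. LAMA5, the alpha chain of the laminins that combine it with LAMB1 or LAMB2 and LAMC1, was the highest laminin per kilobase, with 55.9 CPM per kilobase in controls and 46.3 with knockdown. It was at 838, 754 and 806 CPM in the control libraries and 685, 612 and 689 CPM in the knockdown libraries, and it fell by 0.27 on the log2 scale (SE 0.06, adjusted p = 0.0018). LAMC1 was at 243, 254 and 251 CPM in controls and 219, 220 and 216 CPM with knockdown. The fall of LAMC1 was 0.19 on the log2 scale (SE 0.05, adjusted p = 0.00849), with an adjusted p of 0.0503 without control replicate 3 and 0.0545 with the trend removed. LAMB1, the beta chain of the same trimer, rose instead, from 128, 129 and 128 CPM to 162, 163 and 154 CPM. All knockdown libraries lay above all control libraries, and the rise was 0.31 on the log2 scale (SE 0.05, adjusted p = 0.000318). LAMB2, the alternative beta chain, was at 124 to 142 CPM in controls and 114 to 125 CPM with knockdown (log2 fold change -0.13, SE 0.06, adjusted p = 0.129), and at -0.18 without control replicate 2 (adjusted p = 0.0479). Per kilobase the control means of these chains were 55.9 for LAMA5, 29.7 for LAMC1, 19.3 for LAMB2 and 15.8 for LAMB1, and with knockdown LAMB1 at 19.6 stood above LAMB2 at 17.6.

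LAMA3 and LAMB3, chains of the laminin that hemidesmosomes hold, did not pass the test. LAMB3 ranged from 97.7 to 113 CPM in controls and from 89.7 to 104 CPM with knockdown (log2 fold change -0.13, SE 0.07, adjusted p = 0.203), and was at -0.19 without control replicate 2 (adjusted p = 0.0452). LAMA3 ranged from 87.5 to 95.1 CPM and from 92.8 to 101 CPM (log2 fold change 0.07, SE 0.06, adjusted p = 0.404). Both overlapped between groups. LAMA4, a chain of vessel and muscle laminins, had no count, and LAMA1, LAMA2 and LAMB4 had at most 10 counts in any library.

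**Figure D4:**
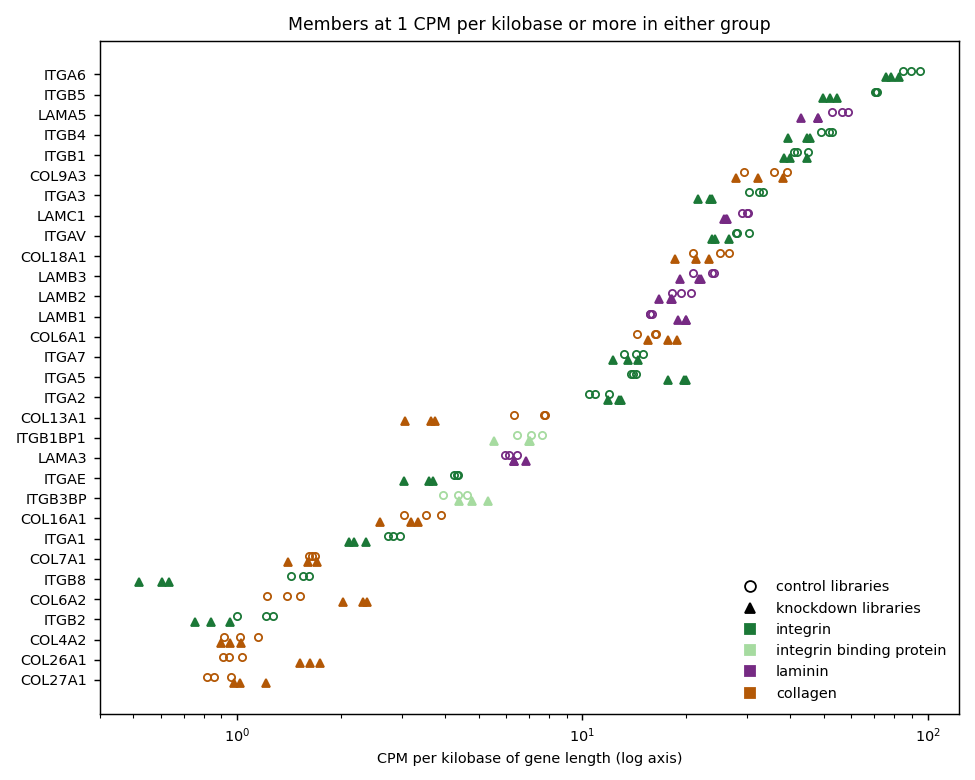
Level per kilobase of gene length (x axis, CPM per kilobase, log axis) in each control library (open circles) and knockdown library (triangles) for the genes at 1 CPM per kilobase or more in either group, coloured by family. ITGA6, ITGB5 and LAMA5 lie at the top with control means of 89.8, 70.9 and 55.9, and COL9A3 is the highest collagen.

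None of the most abundant collagens passed the test. The 3 highest per kilobase were COL9A3, a chain of cartilage-type collagen IX, COL18A1, the precursor of endostatin in basement membranes, and COL6A1, a chain of the beaded filaments of collagen VI. COL9A3 was at 190, 143 and 174 CPM in controls and 156, 134 and 184 CPM with knockdown (log2 fold change -0.09, SE 0.10, adjusted p = 0.543). COL18A1 was at 227, 179 and 213 CPM in controls and 181, 158 and 198 CPM with knockdown (log2 fold change -0.20, SE 0.08, adjusted p = 0.0855). Without control replicate 2 its value was -0.30 (adjusted p = 0.00397), and without knockdown replicate 3 it was -0.29 (adjusted p = 0.0183), and it also passed without the filter on low counts (-0.22, adjusted p = 0.00265), while 16.4% of its exonic bases overlap SLC19A1 on the opposite strand. Control replicate 2 was the lowest control for each of these chains.

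Collagen VI is built of COL6A1, COL6A2 and a longer chain, usually COL6A3. COL6A2 was at 7.51, 8.17 and 6.58 CPM in controls and 12.8, 10.9 and 12.5 CPM with knockdown. It rose by 0.70 on the log2 scale (SE 0.11, adjusted p = 0.000224), with no overlap. COL6A1, 93046 bases from it on the same strand of chromosome 21, was at 87.4, 77 and 86.7 CPM in controls and 94.8, 82.7 and 100 CPM with knockdown, and did not pass (log2 fold change 0.15, SE 0.07, adjusted p = 0.161). Without knockdown replicate 2 its value was 0.22 (adjusted p = 0.0154). COL6A3 was at 9.96 to 10.7 CPM in controls and 9.86 to 10.3 CPM with knockdown (log2 fold change -0.07, SE 0.10, adjusted p = 0.69). Per kilobase, COL6A1 stood at 15.7 in controls, COL6A2 at 1.38 and COL6A3 at 0.533, and with knockdown at 17.3, 2.24 and 0.509, so the chains of this heterotrimer were far from equal in either group.

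COL13A1, a transmembrane collagen of cell adhesion sites, was the 1 collagen that fell. It was at 45.5, 37.4 and 45.7 CPM in control libraries and 22, 18.1 and 21.4 CPM in knockdown libraries. The lowest control lay well above the highest knockdown value, and the fall was 1.06 on the log2 scale (SE 0.09, adjusted p = 2.92e-07). COL17A1, the transmembrane collagen of hemidesmosomes, had only 5 to 19 counts a library and did not pass (log2 fold change 0.73, SE 0.40, adjusted p = 0.205).

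The fibrillar collagens, which build the fibrils of connective tissue, were low. COL5A1, which nucleates fibrils of collagen I, had 15, 17 and 14 counts in controls and 41, 36 and 53 with knockdown. It rose by 1.28 on the log2 scale (SE 0.29, adjusted p = 0.00327), while its partner chains COL5A2 and COL5A3 had 0 to 8 and 0 to 13 counts a library and were not tested. COL2A1, the collagen of cartilage, had 78, 74 and 84 counts in controls and 113, 107 and 157 with knockdown, and its rise of 0.46 (SE 0.16) stood at the threshold (adjusted p = 0.0475). The adjusted p was 0.238 without knockdown replicate 3, 0.13 without control replicate 1, 0.0827 without control replicate 2, 0.089 without control replicate 3, 0.068 without knockdown replicate 1, 0.137 with DESeq2, 0.0513 with RLE scaling, 0.0684 without the filter on low counts and 0.146 with the trend removed. COL1A1 had 165 to 287 counts a library (log2 fold change 0.12, SE 0.12, adjusted p = 0.53), its partner COL1A2 had 0 to 7, and COL3A1 had none. COL27A1, named after its values were seen, had 266 to 479 counts a library. It did not pass (log2 fold change 0.28, SE 0.11, adjusted p = 0.0641), though its groups did not overlap. The adjusted p of COL27A1 was 0.0428 without control replicate 1 and 0.0273 without knockdown replicate 2. COL26A1, a secreted collagen, was at 3.27, 2.88 and 2.99 CPM in controls and 5.5, 4.78 and 5.14 CPM with knockdown, and rose by 0.75 on the log2 scale (SE 0.15, adjusted p = 0.00113). COL15A1, chosen after its values were seen, had no count in the controls and 4, 6 and 8 counts with knockdown, too few to be tested. Fibroblast markers summed to 4.59 to 5.16 CPM in controls and 5.04 to 6.98 CPM with knockdown, mostly ACTA2 and PDGFRB, and DCN, FAP, POSTN and TWIST1 were at 0 in all 6 libraries.

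Type IV collagen, the partner of laminin in basement membranes, was present mainly as COL4A2, a gene named after its values were seen. COL4A2 had 570, 410 and 492 counts in controls and 518, 479 and 590 with knockdown, with overlapping groups (log2 fold change -0.10, SE 0.10, adjusted p = 0.502). COL4A1, whose protein joins that of COL4A2 in the common heterotrimer, had 5, 2 and 2 counts in controls and 2 in each knockdown library. The genes start back to back on chromosome 13, with 127 bases between the RefSeq starts, and their annotated spans in the table overlap. The window shown is that of COL4A2, chr13:110307034-110307333 (plus strand, GRCh38.p14), and the capitals run from the start of COL4A1, read to the left, to the start of COL4A2, read to the right.
COL4A2: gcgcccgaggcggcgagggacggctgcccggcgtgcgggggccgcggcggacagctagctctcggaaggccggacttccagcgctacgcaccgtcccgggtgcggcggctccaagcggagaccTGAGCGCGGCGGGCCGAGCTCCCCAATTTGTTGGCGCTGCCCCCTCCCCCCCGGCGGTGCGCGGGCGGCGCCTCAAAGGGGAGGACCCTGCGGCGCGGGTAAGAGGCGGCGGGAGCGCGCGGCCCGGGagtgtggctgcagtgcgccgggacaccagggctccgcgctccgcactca
So the 300 bases around the RefSeq start of COL4A2 also hold most of the window of COL4A1, with 226 bases in common. The level per kilobase was 1.03 for COL4A2 and 0.00815 for COL4A1 in controls. The other head-to-head collagen IV genes were low on both sides. COL4A3 had 12 to 43 and COL4A4 22 to 39 counts a library, and COL4A5 had 8 to 39 against 0 or 1 for COL4A6. None of the 4 tested collagen IV chains passed by edgeR's test or with DESeq2, and 1 of them, COL4A5, was under an unadjusted p of 0.05 (log2 fold change 1.01, SE 0.38, adjusted p = 0.0593). Its adjusted p was 0.0244 without knockdown replicate 2 and 0.0488 without the filter on low counts.

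None of the 3 integrin-binding proteins passed by edgeR's test or with DESeq2, and 1, ITGB1BP2, was under an unadjusted p of 0.05. ITGB1BP1, a regulator of ITGB1 activation, was at 51.1, 43.2 and 47.5 CPM in controls and 46.7, 36.9 and 47.1 CPM with knockdown (log2 fold change -0.12, SE 0.09, adjusted p = 0.373), and ASAP2 overlaps 33.1% of its exonic bases on the opposite strand. ITGB3BP, a centromere protein also known to bind ITGB3, had a log2 fold change of 0.17 (SE 0.09, adjusted p = 0.198). ITGB1BP2, a muscle protein, had 20 to 40 counts a library and a log2 fold change of -0.67 (SE 0.28, adjusted p = 0.0931), which passed the threshold with the trend removed (adjusted p = 0.0377).

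CNOT7 acts on mRNA tails, and proteins that bind the 3′ UTR can bring its complex to a transcript, so the 3′ UTRs of the members were searched for the Pumilio word TGTANATA and the AU-rich word ATTTA on the sense strand. None of the 10 members that rose held TGTANATA. Of the 13 that fell, 6 did, namely COL13A1, ITGAV, ITGB5, ITGA3, ITGA1 and LAMC1. So did 5 of the 29 members not called (17.2%) and 14 of the 33 not tested (42.4%), so TGTANATA was not particular to the members that fell. Among all tested protein-coding genes it was found in 27.5% of those that rose, 28.3% of those that fell and 25.1% of the rest, so the directions differed little there. ATTTA occurred 1.60 times per kilobase in the members that rose and 3.74 times in those that fell, against 2.03 and 2.17 in all genes that rose and fell. The members not called had 1.93 and those not tested 3.05. These rates pool the 3′ UTR bases of a set, so long 3′ UTRs weigh most. The 3′ UTRs were also of unequal length, with a median of 737 bases in the members that rose and 1500 bases in those that fell. The longest were those of ITGA1 with 6759 bases and 29 ATTTA words and ITGB8 with 5757 bases and 26. The words were counted in 1 annotated transcript a gene, and no test was made of these counts.

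Genes that work with these receptors and matrix chains moved in both directions as well, with 23 higher and 29 lower of 119 tested in 5 lists. That is 43.7% called, against 25.2% of all tested genes (13.3% higher and 11.9% lower). Of the 13642 tested protein-coding genes, 2000 rose and 1965 fell. The lists were drawn up with earlier results of these data known, so the share called only describes them. The median log2 fold change over the 119 was -0.03. Among 34 tested adaptors that join integrins to the cytoskeleton, 6 rose and 12 fell. TNS3, a tensin of focal adhesions, was at 158, 152 and 161 CPM in controls and 114, 107 and 107 CPM with knockdown, and fell by 0.52 on the log2 scale (SE 0.05, adjusted p = 2.41e-06). TGFB1I1, the paxillin relative Hic-5, fell by 0.48 (SE 0.08, adjusted p = 0.000351) and LIMS2, the ILK partner PINCH2, by 0.65 (SE 0.15, adjusted p = 0.00449), while the tensin TNS1 rose by 0.57 (SE 0.13, adjusted p = 0.00479). Other ligands and receptors gave 7 higher and 7 lower of 23. CYR61, a secreted integrin ligand, was at 155, 141 and 152 CPM in controls and 23.2, 21.9 and 24.3 CPM with knockdown, a fall of 2.69 on the log2 scale (SE 0.07, adjusted p = 3.31e-14). NPNT, a basement membrane ligand of the ITGA8 dimer, had 14, 19 and 26 counts in controls and 114, 104 and 121 with knockdown, and rose by 2.30 (SE 0.23, adjusted p = 1.05e-06), although ITGA8 itself had at most 2 counts in any library. LAIR1, a collagen receptor of leukocytes, had 0, 5 and 4 counts in controls and 27, 13 and 19 with knockdown. TNXB, a tenascin, had 2, 7 and 15 against 42, 19 and 44. Both had enough counts to be tested only through their knockdown libraries. Their log2 fold changes of 2.45 (SE 0.59) and 1.90 (SE 0.47) therefore only describe these counts.

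Basement membrane genes other than laminins and collagens gave 2 higher and 2 lower of 12, or 33.3% called, against 25.2% of all tested genes. AGRN, the proteoglycan agrin, which binds laminin, was at 1202, 1057 and 1152 CPM in controls and 907, 821 and 957 CPM with knockdown, and fell by 0.35 on the log2 scale (SE 0.06, adjusted p = 0.000396). TINAGL1 fell by 0.26 (SE 0.07, adjusted p = 0.0115), and by 0.20 without control replicate 1 (adjusted p = 0.0561) or with the trend removed (adjusted p = 0.0683). SPARC, a collagen-binding glycoprotein, went from 19.9, 20.2 and 18.7 CPM to 37.6, 36.8 and 36.8 CPM, a rise of 0.92 (SE 0.07, adjusted p = 9.48e-08), and the low-count FREM2 rose by 1.03 (SE 0.28, adjusted p = 0.0108), or 0.72 without knockdown replicate 1 (adjusted p = 0.0998).

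Enzymes and chaperones of collagen assembly gave 3 higher and 2 lower of 28, or 17.9% called, below the 25.2% of all tested genes. LOXL4, a lysyl oxidase that crosslinks collagen, fell by 0.59 on the log2 scale (SE 0.06, adjusted p = 3.12e-06). P4HA1, a subunit of the prolyl hydroxylase that stabilises the triple helix, rose by 0.45 (SE 0.07, adjusted p = 0.000172), and TLL2, a protease of the procollagen C-proteinase family, rose by 1.02 (SE 0.18, adjusted p = 0.000428) from 43 to 52 counts in controls. COLGALT2, which adds galactose to collagen, rose by 0.25 (SE 0.08, adjusted p = 0.0357), and the adjusted p was between 0.0596 and 0.181 without control replicate 1, control replicate 3, knockdown replicate 1 or knockdown replicate 3, 0.0742 with DESeq2 and 0.0831 without the filter on low counts. Matrix proteases and their inhibitors gave 5 higher and 6 lower of 22. MMP9, a gelatinase, rose by 0.72 (SE 0.12, adjusted p = 0.000318), while 18.4% of its exonic bases overlap SLC12A5-AS1 on the opposite strand. MMP11 rose by 0.48 (SE 0.14, adjusted p = 0.0169), though not without control replicate 2 (adjusted p = 0.0572) or knockdown replicate 3 (adjusted p = 0.097), and MMP28, at 2 to 32 counts a library, rose by 1.31 (SE 0.46, adjusted p = 0.0459), with an adjusted p between 0.0577 and 0.236 without control replicate 2, control replicate 3 or knockdown replicate 1, of 0.108 with DESeq2 and of 0.102 with the trend removed.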

How the data were processed

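Total RNA (TRIzol) was made into libraries with the NEBNext Ultra kit, and the authors deposited an unnormalized table of counts by gene that also lists gene length. The submitters' processing notes list CASAVA 1.8, fastp, HISAT2 2.0.5, featureCounts 1.5.0-p3 and DESeq2 1.20.0, and GRCh38. The strand setting is not given in the sources used here. All 58735 gene identifiers and positions matched GENCODE release 29. The number of sample columns left unused was 0.

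Counts were tested in R 4.3.3 with edgeR 4.0.16 (filterByExpr, TMM, glmQLFit, glmQLFTest, group as the only term), with Benjamini-Hochberg adjustment over 17574 genes. The SE is the absolute log2 fold change over the square root of F. Alternatives were DESeq2 1.42.0, RLE scaling, other filters on low counts, a replicate block, cyclic loess offsets (limma 3.58.1), a minimum fold change and each library left out. The procedure was tested on simulated data. At this depth and 3 libraries a group, the SE shows the precision. Replicates differed by more than sampling noise.

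Members and gene lists were chosen with earlier results of these data known. Named genes are the called members, the 3 most abundant members per family that were not called, chains that complete a heteromer with a called member, up to 4 called genes of each related list by size of change, CNOT7 and the integrin-binding proteins. Promoters came from RefSeq (GRCh38.p14) where its start lay within 500 bases of that in the table, and 3′ UTRs from GENCODE. The window printed for COL4A2 did not meet this rule, as its RefSeq start was 110307284 and the other start 110305812. It was not among the windows searched for motifs. The promoter and 3′ UTR shares are descriptions without a test. Values of some genes are not reported here.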

Additional observations from a re-analysis of the deposited data

How the results depend on the processing

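Without the low-count filter, 3 collagens were lower rather than 1, and over all genes 2201 were higher and 2342 lower. A minimum log2 change of 1 left 2 integrins higher and 1 lower, 0 laminins in either direction, 1 collagen higher and 1 lower, and 7 related genes higher and 2 lower. Whether the replicate numbers of the labels pair the samples was not settled. Deviations from the group means correlated at 0.02, 0.15 and -0.02 for same-numbered libraries and at -0.15 to 0.13 for the others. With 3 libraries a group these deviations constrain each other, so the correlations cannot decide it. With a replicate block the counts were 6 integrins higher and 9 lower, 1 laminin higher and 5 lower, 7 collagens higher and 3 lower, and 33 related genes higher and 36 lower, and over all genes calls went from 2329 higher and 2095 lower to 3202 and 3306. ITGA2, LAMB2, LAMB3, COL4A5, COL6A1 (adjusted p = 0.0068), COL16A1, COL18A1 and COL27A1 also passed with the block. Leaving out each library in turn gave 4 to 6 integrins higher and 6 to 8 lower, 1 laminin higher and 2 to 5 lower (5 without control replicate 2), 3 to 7 collagens higher (7 without knockdown replicate 2) and 1 to 3 lower (3 without control replicate 2 and 2 without knockdown replicate 3), and 14 to 27 related genes higher (14 without knockdown replicate 1) and 22 to 32 lower. With libraries left out in turn, calls over all genes also varied, from 1626 to 2323 higher and from 1367 to 2219 lower. Without knockdown replicate 1 they were 1626 higher and 1480 lower. DESeq2, RLE scaling and the removal of the trend with level kept each family count within 1.5 times. Over all genes DESeq2 called 1773 higher and 2084 lower. Signs turned only for genes that were not called: ITGB1 to 0.00487 with the trend removed, and, with libraries left out in turn, COL9A3 (-0.22 to 0.00922) and COL7A1 (-0.13 to 0.0101) without knockdown replicate 2, ITGA10 (-0.27 to 0.10) without control replicate 3, and LAMC3 (-0.39 to 0.16) without control replicate 2 or knockdown replicate 3. The causes were not tested. Genes under about 50 counts a library rest on few reads, and 33 of the 85 could not be tested at this depth.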
